A study of Mus musculus with 13 samples.

Results

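Imprinted growth regulators were followed here through 4 groups of mouse limb buds measured by RNA-seq. The 9 genes, Igf2, Grb10, H19, Cdkn1c, Mest, Peg3, Plagl1, Dlk1 and Meg3, were taken by symbol from the 12880 genes of the deposited table. Each symbol stood on 1 row, and all 9 genes passed the filter on low values (at least 1 RPKM in at least 3 libraries). The study asked what SOX9, a transcription factor required for cartilage formation, contributes at the onset of chondrogenesis in the limb.

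Embryos of the earlier stage (E11.5) were Sox9fl/- controls (3 libraries) or Sox9-/- mutants (Sox9null, 4 libraries). At the later stage (E12.5) they were Sox9fl/fl controls (3 libraries) or Sox9fl/flPrx1CreER mutants (Sox9cKO, 3 libraries), in which an inducible Cre is driven by regulatory sequence of Prx1, a gene of limb mesenchyme. The E11.5 controls carried 1 null Sox9 allele and the E12.5 controls none, so stage and control genotype cannot be told apart, and nor can stage and kind of mutation among the mutants. The labels and headers name neither the inducer, nor its timing, nor the way the null allele was made. Each library came from the limb buds of a separate embryo, per the file headers.

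Imprinted genes are expressed mainly from the copy inherited from 1 parent, because DNA methylation laid down in the egg or sperm marks control regions of CG-rich sequence. Many act on embryonic growth. Growth promoters, such as Igf2, tend to be expressed from the paternal copy, and growth inhibitors, such as Cdkn1c and Grb10, from the maternal copy. Several of these genes are highly expressed in embryonic mesoderm and are turned down as organs mature. The assay measured total RNA of each gene and did not separate the parental copies.

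In GRCm38 coordinates (GENCODE M21), H19 lies at chr7:142575529-142578143 and Igf2 at chr7:142650766-142666816, both on the minus strand and 72.6 kb apart. Cdkn1c lies farther along the same cluster at chr7:143458339-143461050, also on the minus strand. Dlk1 (chr12:109452823-109463336) and Meg3 (chr12:109541001-109571726) stand 77.7 kb apart on the plus strand. Mest (chr6:30723547-30748465, plus), Peg3 (chr7:6703892-6730431, minus), Plagl1 (chr10:13060504-13131694, plus) and Grb10 (chr11:11930508-12038683, minus) are each in a locus of their own. H19 and Meg3 are long non-coding RNAs, and the other 7 genes encode proteins. Mest overlaps Copg2 and Igf2 overlaps Igf2os on the opposite strand, so reads of each pair cannot be told apart unless counting used strand.

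Start-site sequences from RefSeq (GRCm38.p6; 250 bases before to 50 after a start) are shown for the 4 genes that were lower at E12.5 in both genotypes, since DNA methylation in mammals acts on the CG dinucleotide. Methylation was not measured. For each gene the window richest in CG was taken. Capitals mark CG in the windows of Grb10 (chr11:12037371-12037670, minus strand), Mest (chr6:30737800-30738099, plus) and Igf2 (chr7:142658755-142659054, minus). In the window of Peg3 (chr7:6730370-6730669, minus) they mark GGGGCCCC, the palindrome that the zinc finger protein PLAGL1 is known to bind.
Grb10: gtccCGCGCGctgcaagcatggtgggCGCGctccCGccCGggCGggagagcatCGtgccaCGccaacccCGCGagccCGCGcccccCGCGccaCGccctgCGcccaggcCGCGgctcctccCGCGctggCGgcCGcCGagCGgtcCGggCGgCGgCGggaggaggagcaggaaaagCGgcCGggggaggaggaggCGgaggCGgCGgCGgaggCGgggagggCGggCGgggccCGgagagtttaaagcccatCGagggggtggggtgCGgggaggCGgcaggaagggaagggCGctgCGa
Mest: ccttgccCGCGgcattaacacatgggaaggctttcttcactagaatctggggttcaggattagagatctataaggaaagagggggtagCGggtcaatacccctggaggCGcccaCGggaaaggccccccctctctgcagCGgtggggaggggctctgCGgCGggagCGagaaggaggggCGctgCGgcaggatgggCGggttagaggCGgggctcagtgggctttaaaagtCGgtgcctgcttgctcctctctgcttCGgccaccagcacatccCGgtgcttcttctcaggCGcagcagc
Igf2: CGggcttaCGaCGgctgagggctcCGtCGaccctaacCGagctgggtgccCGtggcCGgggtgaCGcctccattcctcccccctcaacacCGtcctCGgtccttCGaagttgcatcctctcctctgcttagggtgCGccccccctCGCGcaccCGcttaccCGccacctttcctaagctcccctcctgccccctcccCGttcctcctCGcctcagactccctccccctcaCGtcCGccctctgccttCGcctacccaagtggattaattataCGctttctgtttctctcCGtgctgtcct
Peg3: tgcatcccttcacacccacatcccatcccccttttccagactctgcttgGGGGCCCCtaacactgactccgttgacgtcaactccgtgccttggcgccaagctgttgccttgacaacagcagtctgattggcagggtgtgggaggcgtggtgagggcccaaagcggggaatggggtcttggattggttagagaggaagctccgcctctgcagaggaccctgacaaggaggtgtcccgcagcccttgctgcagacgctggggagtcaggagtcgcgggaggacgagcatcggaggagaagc

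The Grb10 window held 45 CG dinucleotides, more than 98.1% of all 32851 windows, whose median was 7. The Igf2 window held 24, the Mest window 17 and the Peg3 window 13, more than 80.0%, 68.6% and 62.1% of all windows. These are the richest windows of each gene, and the other Igf2 windows held 2, 14 and 7. The window of Plagl1, which was not called between stages, held 26, more than 83.1% of all windows. The palindrome GGGGCCCC, which reads the same on both strands, stood in 1.08% of all windows and in 1 of the 14 windows of 7 members, that of Peg3. The core letters that SOX proteins bind, searched on both strands, were ACAATG, present in 1 of the 14 windows (another start of Igf2) against 12.6% of all windows, and ACAAAG, present in 0 of the 14 against 18.7%. These matches describe letters in a short window and not binding.

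H19, Mest, Igf2 and Meg3 hold microRNA genes on their own strand. The mature forms within the first 3 are shown, since H19 is known as the precursor of miR-675 and the genes of miR-335 (in Mest) and miR-483 (in Igf2) have rows in the table. Capitals mark the seed, bases 2 to 8, and the 6 seeds all differ.
miR-675-5p (H19): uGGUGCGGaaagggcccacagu
miR-675-3p (H19): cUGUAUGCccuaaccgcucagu
miR-335-5p (Mest): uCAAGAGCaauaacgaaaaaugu
miR-335-3p (Mest): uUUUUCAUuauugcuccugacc
miR-483-5p (Igf2): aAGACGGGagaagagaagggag
miR-483-3p (Igf2): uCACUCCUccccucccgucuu

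Values are normalized RPKM as deposited by the authors. RPKM scales reads to gene length and library depth, so levels can be set side by side between genes. The levels of Mest, Igf2 and Meg3 may hold reads of overlapping genes, since the use of strand is not known. The labels and headers give no sequencing depth. Before any comparison, 1 feature of the libraries has to be stated. By their correlation over all genes, libraries of E11.5 formed 2 sets, one of 3 (control 2, Sox9null 1 and Sox9null 2) and one of 4 (control 1, control 3, Sox9null 3 and Sox9null 4). Pearson r of log2 values was 0.979 to 0.989 within the sets and 0.938 to 0.966 between them. Both sets hold controls and mutants, and what separates them is not given in the labels. The set of the E12.5 libraries is unknown, so a difference of this kind and stage cannot be told apart. The sources used here do not say which part of Sox9 the alleles remove. Its RNA as listed was 35.8 to 49.3 RPKM in the E11.5 controls and 20.6 to 25.7 in Sox9null, and 35.2 to 37.5 in the E12.5 controls and 28.7 to 35.1 in Sox9cKO. RNA of Y-linked genes was found in 1 of 3, 1 of 4, 3 of 3 and 1 of 3 libraries of those groups in that order. No library of the E11.5 set of 3 had it, so sex and set are linked at E11.5.

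**Figure D1:**
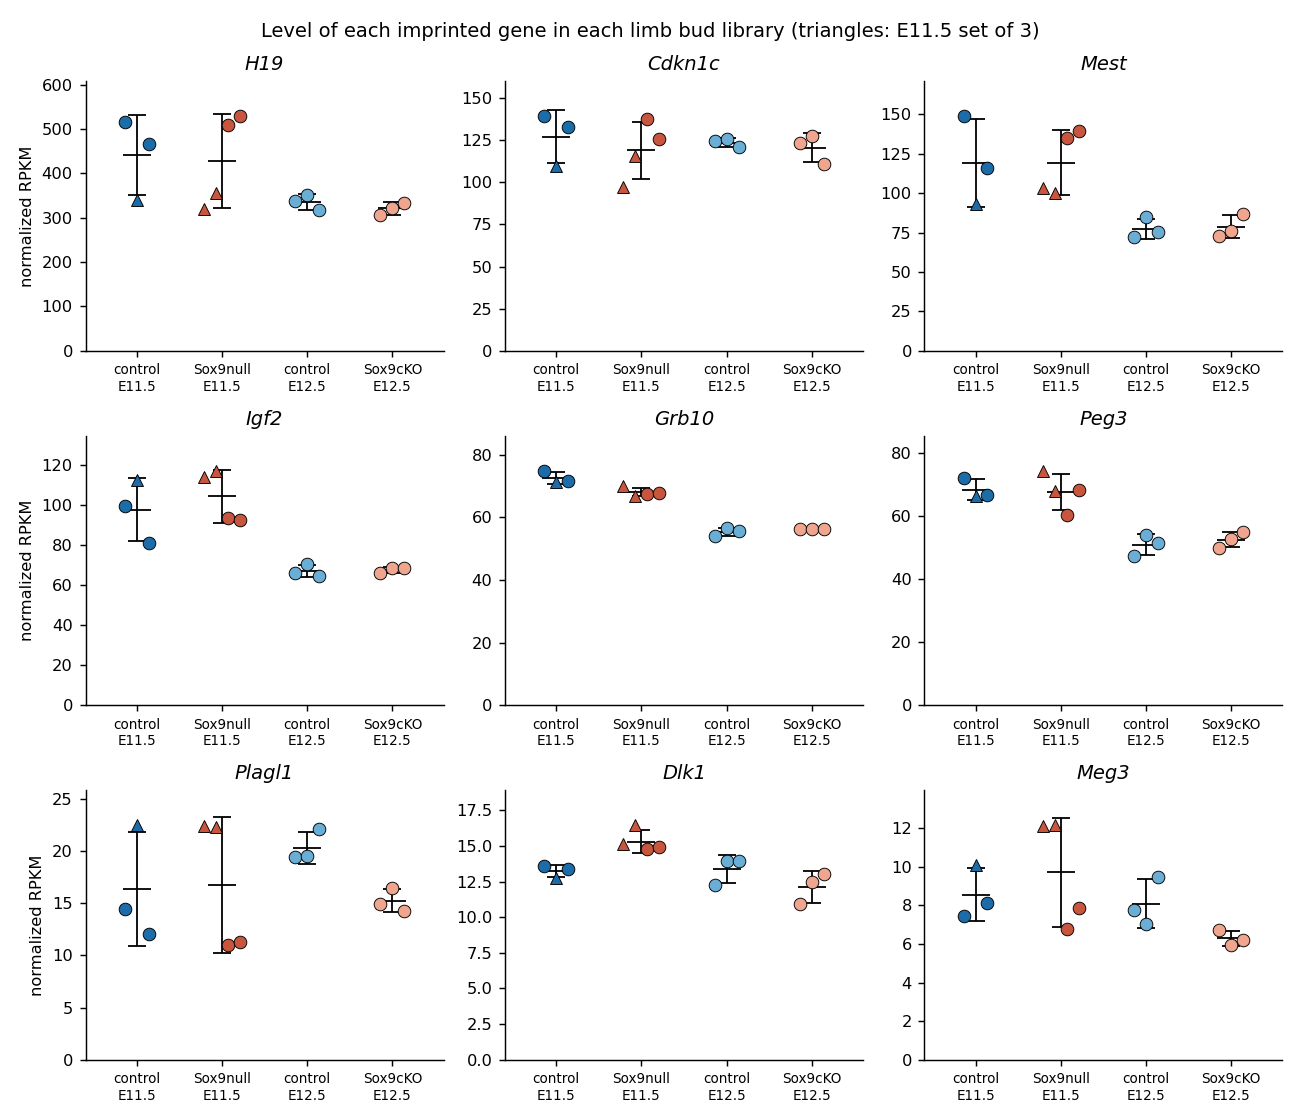
Normalized RPKM of each of the 9 genes (vertical axis from 0) in each library of the 4 groups (horizontal axis). Points are libraries, triangles those of the E11.5 set of 3, and black bars the mean and SD of a group. Igf2, Grb10, Mest and Peg3 are lower in all 6 E12.5 libraries than in all 7 E11.5 libraries, and H19, Cdkn1c, Mest, Igf2, Plagl1 and Meg3 split between triangles and circles at E11.5.

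H19, a maternally expressed non-coding RNA, was the most abundant of the 9 genes in each group and ranked 7 of 12880 genes by its mean over all libraries. It measured 441 ± 90.1 RPKM (SD, n = 3) in E11.5 controls. Cdkn1c ranked 31, Mest 47, Igf2 73, Grb10 231 and Peg3 264. Plagl1, Dlk1 and Meg3 were much lower, ranking 5871, 7240 and 9628. In the E11.5 controls the order was H19, Cdkn1c, Mest, Igf2, Grb10, Peg3, Plagl1, Dlk1 and Meg3. The ranges of Cdkn1c and Mest, Mest and Igf2, Grb10 and Peg3, and Plagl1 and Dlk1 overlapped there. Within each of these control libraries Grb10 still measured above Peg3, while the order of the other pairs changed between libraries. Overlap of ranges thus does not show that neighbours were equal, and differences within libraries were not tested. In Sox9null, Mest and Cdkn1c exchanged places, with overlapping ranges, and Cdkn1c and Igf2, Grb10 and Peg3, and Plagl1 and Dlk1 overlapped too. At E12.5 both groups had the order of the E11.5 controls, and the only neighbours with overlapping ranges were Grb10 and Peg3 in the controls.

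Stage was the first comparison. Of the 9 genes, 5 fell from E11.5 to E12.5 over both genotypes (limma on log2(RPKM + 1), Benjamini-Hochberg adjusted p under 0.05 over 12880 genes): Igf2, Mest, Peg3, Grb10 and Dlk1. None rose. Among all genes 42.4% were called in this comparison, 12.6% lower and 29.7% higher. In controls alone 4 of the 9 fell (Igf2, Mest, Peg3 and Grb10), where 21.7% of all genes were called, 5.19% lower and 16.5% higher. In mutants alone these and Dlk1 fell, where 19.7% were called, 5.23% lower and 14.5% higher. The median log2 difference of the 9 genes over both genotypes was -0.33, against 0.06 for all genes. Since the tissue was whole limb bud, fewer cells that express a gene and less RNA per cell cannot be told apart.

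The split of all called genes between higher and lower depends on how libraries are scaled. Of the genes called over both genotypes 70.16% were higher with the deposited scaling, 53.21% after quantile normalization and 42.38% after shifting each library to a common median. In controls these shares were 76.09%, 55.44% and 41.35%, and in mutants 73.45%, 55.62% and 45.27%. The median over all genes in controls moved from 0.06 to -0.04 with the median shift. Relative to that median, the differences of Igf2, Mest, Peg3 and Grb10 stayed below 0 under each scaling. After quantile normalization none of the 4 was called in controls or mutants alone (adjusted p 0.0734 to 0.356 and 0.0996 to 0.185), and over both genotypes Grb10 (-0.15), Peg3 (-0.23) and Mest (-0.20) were called with smaller differences.

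Igf2 encodes the fetal insulin-like growth factor, a ligand that promotes embryonic growth. Its E11.5 controls measured 99.7, 112 and 81.0 RPKM and the Sox9null libraries 114, 117, 93.5 and 92.7. The E12.5 controls measured 66.0, 70.5 and 64.8 RPKM and Sox9cKO 65.9, 68.3 and 68.4. Every E12.5 library was below every E11.5 library, and the E12.5 libraries lay between 64.8 and 70.5 RPKM. The log2 difference was -0.57 ± 0.08 (SE) over both genotypes (limma, adjusted p = 0.000368), -0.52 in controls and -0.61 in mutants. Permuting stage within each genotype gave an exact two-sided p of 0.00286, the smallest that the 700 arrangements allow. That value follows from the lack of overlap and adds nothing to it. The permutation also takes libraries of a genotype as exchangeable, although the E11.5 sets differed for Igf2. Against the set of 4 alone the log2 difference in means was -0.44 and against the set of 3 alone -0.76. After quantile normalization it was -0.30 and was no longer called (adjusted p = 0.0613).

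Grb10 encodes an adaptor that binds the insulin and IGF1 receptors and restrains their signalling. It measured 74.9, 71.4 and 71.5 RPKM in the E11.5 controls and 70.1, 66.9, 67.4 and 67.8 in Sox9null. At E12.5 the controls measured 54.0, 56.5 and 55.5 RPKM and Sox9cKO 56.2, 56.3 and 56.3. The groups of the 2 stages did not overlap, and the 3 Sox9cKO libraries were almost equal. The log2 difference over both genotypes was -0.33 ± 0.03 (limma, adjusted p = 4.69e-05), with -0.39 in controls and -0.27 in mutants. It was similar against either E11.5 set, -0.33 for the set of 4 and -0.31 for the set of 3.

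Peg3, a zinc finger protein expressed from the paternal copy and known for effects on growth and maternal behaviour, measured 72.3, 66.6 and 66.6 RPKM in the E11.5 controls. The Sox9null libraries measured 74.5, 67.9, 60.6 and 68.4 RPKM. At E12.5 the values were 47.5, 54.1 and 51.5 RPKM in controls and 50.1, 52.7 and 54.9 in Sox9cKO. All E12.5 values were below all E11.5 values. The log2 difference was -0.39 ± 0.05 over both genotypes (limma, adjusted p = 0.000257), -0.42 in controls and -0.36 in mutants. It was -0.36 against the set of 4 and -0.42 against the set of 3.

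Mest, a paternally expressed gene of the mesoderm, measured 149, 93.2 and 116 RPKM in the E11.5 controls and 103, 99.9, 135 and 139 in Sox9null. At E12.5 it measured 72.5, 84.7 and 75.3 RPKM in controls and 72.8, 76.2 and 86.9 in Sox9cKO. The stages did not overlap, although the 3 libraries of the set of 3 were the lowest of the E11.5 libraries. The log2 difference was -0.59 ± 0.12 over both genotypes (limma, adjusted p = 0.00227). It was -0.78 against the set of 4 and -0.34 against the set of 3. In controls alone the difference was -0.59 (adjusted p = 0.0286), and with the set of 4 left out it was -0.27 and not called (adjusted p = 0.0702). In mutants alone it was -0.58 (adjusted p = 0.0269). In controls it was not called without E11.5 control 1 (adjusted p = 0.102) or 3 (0.0583) or E12.5 control 1 (0.104) or 3 (0.0835), and in mutants without Sox9cKO 1 (0.0997) or 2 (0.0993), or with only the groups compared in the fit (0.0519).

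The exact two-sided p by permutation of stage within genotype was 0.00286 for Grb10, Peg3 and Mest as well, which again follows from the lack of overlap. Of the 9 genes these and Igf2, 4 genes, were lower in every E12.5 library than in every E11.5 library, against 5.71% of all genes. In the authors' deposited table, whose p-value tests the 4 groups together, the value was 8.93e-05 for Grb10, 0.00542 for Peg3, 0.00888 for Igf2, 0.0383 for Dlk1 and 0.0448 for Mest. For the other 4 genes it was 0.291 or more in the authors' deposited table.

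Dlk1 encodes a membrane protein of the Delta family, without the domain by which Delta ligands activate Notch, that keeps progenitors undifferentiated. Its level was 13.6, 12.7 and 13.4 RPKM in E11.5 controls and 12.2, 13.95 and 13.97 in E12.5 controls, which overlapped. In the mutants it was 15.1, 16.5, 14.8 and 14.9 RPKM at E11.5 and 10.9, 12.47 and 13.0 at E12.5, with no overlap. E12.5 libraries below all E11.5 libraries among the mutants were found for 9.75% of all genes. The log2 difference between stages was -0.31 ± 0.07 in mutants (limma, adjusted p = 0.0115). Over both genotypes it was -0.15 ± 0.05 (adjusted p = 0.0326), and the exact permutation p was 0.0514. Without Sox9cKO library 1 the difference in mutants was -0.24 and not called (adjusted p = 0.0571). Over both genotypes it was not called without E11.5 control 1 (adjusted p = 0.0677) or 3 (0.0585), Sox9null 2 (0.058), E12.5 control 1 (0.0877) or Sox9cKO 1 (0.0821), or without the set of 4 (0.0896).

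The size of the H19 difference between stages depended on the library set against which it was measured. H19 measured 515 and 466 RPKM in controls 1 and 3 at E11.5 and 508 and 529 in Sox9null 3 and 4, the set of 4. It measured 341 RPKM in control 2 and 319 and 356 in Sox9null 1 and 2, the set of 3. At E12.5 it measured 339, 352 and 317 RPKM in controls and 307, 323 and 334 in Sox9cKO, which overlapped the set of 3 and lay below the set of 4. Over all libraries the log2 difference was -0.38 ± 0.14 (limma, adjusted p = 0.0514), with -0.37 in controls and -0.38 in mutants. Against the set of 4 it was -0.62, and against the set of 3 -0.04. It was called without control 2 (adjusted p = 0.0206), Sox9null 1 (0.02) or Sox9null 2 (0.0436), the libraries of the set of 3. With all libraries it was called after the median shift (-0.46, adjusted p = 0.0127), with sex as a term (-0.48, adjusted p = 0.0221) and without the variance trend and robust estimation (adjusted p = 0.0398). The sex term is not separate from the sets, since no library of the set of 3 had Y-linked RNA. After quantile normalization the difference over both genotypes was 0.084.

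Plagl1 encodes the zinc finger protein mentioned above, which restrains cell proliferation and regulates other imprinted genes. It showed the widest split of the 9 genes at E11.5. The set of 4 measured 14.5, 12.1, 11.0 and 11.2 RPKM, and the set of 3 measured 22.5, 22.4 and 22.3. At E12.5 it measured 19.4, 19.5 and 22.1 RPKM in controls and 14.96, 16.4 and 14.3 in Sox9cKO, all below the set of 3 and overlapping the set of 4. The stage difference over both genotypes was 0.14 ± 0.19 (limma, adjusted p = 0.561), with 0.34 in controls and -0.05 in mutants. With the set of 3 left out it was 0.50 (adjusted p = 0.000138), and with the set of 4 left out -0.33 (adjusted p = 0.000977), so its direction turned with the set.

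Meg3, the maternally expressed non-coding RNA of the Dlk1 locus, measured 7.42, 10.1 and 8.14 RPKM in E11.5 controls and 12.1, 12.2, 6.76 and 7.85 in Sox9null. At E12.5 it measured 7.74, 7.02 and 9.48 RPKM in controls and 6.73, 5.97 and 6.19 in Sox9cKO. The mutant libraries of the 2 stages did not overlap, and the controls did. The log2 difference was -0.52 ± 0.18 in mutants (limma, adjusted p = 0.0655) and -0.29 ± 0.13 over both genotypes (adjusted p = 0.0945). Against the set of 4 the difference in means was -0.07, with overlapping ranges, and against the set of 3 -0.61, so the size of the difference turned on the set. With the set of 4 left out the difference over both genotypes was -0.57 (adjusted p = 0.000525). Without Sox9null 3 it was called in mutants (adjusted p = 0.0199) and over both genotypes (0.0248), and without Sox9null 4 in mutants (0.0475). It was called after quantile normalization in mutants (-0.60, adjusted p = 0.0418) and over both genotypes (-0.42, adjusted p = 0.0285), and over both after the median shift (adjusted p = 0.0499).

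Cdkn1c encodes p57, a cyclin-dependent kinase inhibitor that stops division in differentiating cells, cartilage included. It measured 139, 109 and 133 RPKM in E11.5 controls and 97.5, 115, 138 and 125 in Sox9null. At E12.5 it measured 125, 125 and 121 RPKM in controls and 123, 127 and 111 in Sox9cKO. All 4 groups overlapped. The stage difference over both genotypes was -0.003 ± 0.09, with a 95% interval from -0.19 to 0.18 (limma, adjusted p = 0.98). Against the set of 4 the difference in means was -0.13 and against the set of 3 0.18, each called when the other set was left out (adjusted p = 0.027 and 0.034). After quantile normalization it was 0.43 and called.

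**Figure D2:**
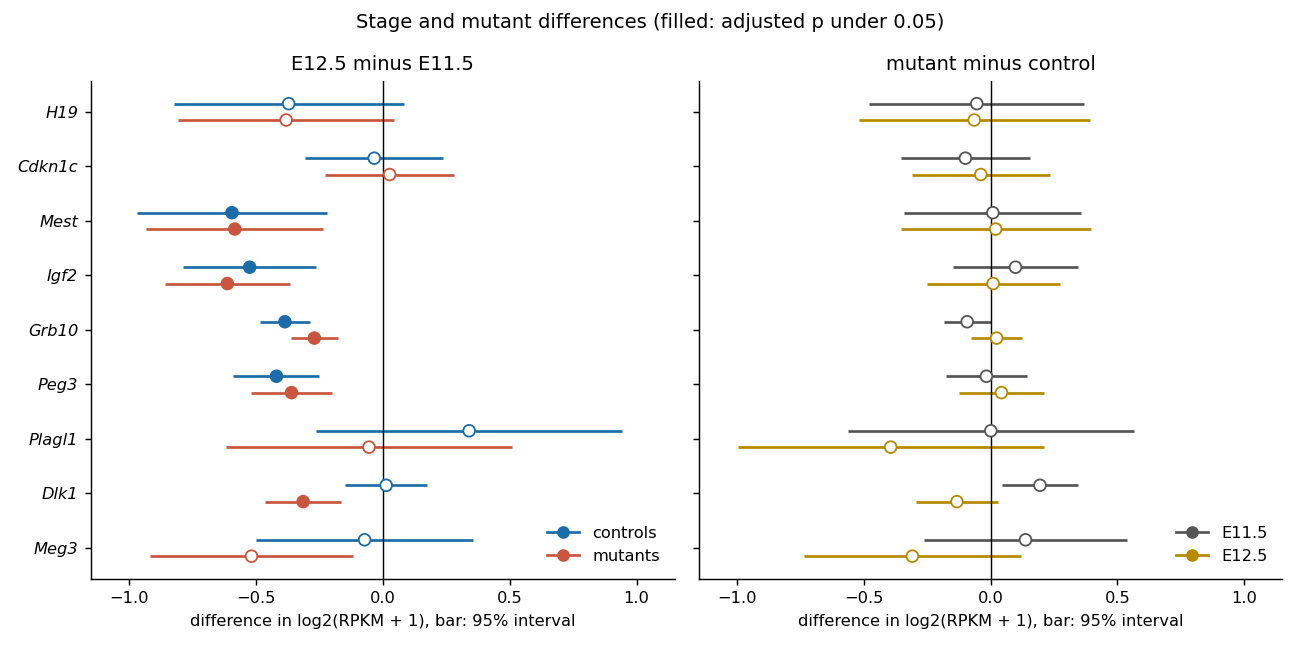
Differences in log2(RPKM + 1) (horizontal axis) for each gene (vertical axis), between stages on the left and between mutant and control on the right. Points are limma estimates with bars for 95% intervals, filled where the adjusted p was under 0.05. Igf2, Grb10, Peg3 and Mest are filled in controls and mutants on the left and Dlk1 in mutants, and no point is filled on the right.

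Loss of SOX9 was the second comparison. None of the 9 genes was called between Sox9null and control at E11.5, where 0.0543% of all genes were called, or between Sox9cKO and control at E12.5, where 0.194% were (limma). At an unadjusted p under 0.05 there was 1 member at E11.5, Dlk1, and 0 at E12.5, where 363 and 697 of all 12880 genes were. The 9 log2 differences lay between -0.10 (Cdkn1c) and 0.19 (Dlk1) at E11.5 and between -0.39 (Plagl1) and 0.04 (Peg3) at E12.5. Their medians were 0.001 and -0.04, against 0.01 and 0.01 for all genes. The 95% interval was narrowest for Grb10 at E11.5, from -0.18 to 0.001, and widest for Plagl1 at E12.5, from -0.99 to 0.21.

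At E11.5, 2 members had groups that did not overlap. Dlk1 was higher in all 4 Sox9null libraries (15.3 ± 0.78 RPKM) than in all 3 controls (13.2 ± 0.44), as were 1.41% of all genes. Its log2 difference was 0.19 ± 0.07 (limma, adjusted p = 1.0), and the exact permutation p was 0.0571, the smallest that 3 against 4 libraries allow. The mean difference was 0.13 within the set of 4 and 0.29 within the set of 3, which holds 1 control. Grb10 was lower in all 4 Sox9null libraries (68.0 ± 1.39 RPKM) than in all 3 controls (72.6 ± 1.97), as were 1.06% of all genes. Its log2 difference was -0.09 ± 0.04 (limma, adjusted p = 1.0; exact permutation p = 0.0571), with -0.11 within the set of 4 and -0.06 within the set of 3. Igf2, the growth factor, differed by 0.10 ± 0.11 (adjusted p = 1.0), with 0.05 and 0.04 within the sets.

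At E12.5, Plagl1 and Meg3 were lower in all 3 Sox9cKO libraries than in all 3 controls, as were 8.5% of all genes. Plagl1 measured 15.2 ± 1.11 RPKM in Sox9cKO and 20.3 ± 1.54 in controls, a log2 difference of -0.39 ± 0.28 (limma, adjusted p = 1.0). The error is estimated over all 4 groups, and Plagl1 differed between the E11.5 sets. With a term that sets the set of 3 apart Plagl1 was called (adjusted p = 0.0409), where 105 of all genes were called against 25 in the main fit. It was not called with only the E12.5 groups in the fit, or with the set of 3 left out. The difference was -0.39 in each of these fits. It was -0.39 too with the set of 4 left out, which leaves 1 E11.5 control. Meg3 measured 6.30 ± 0.39 RPKM in Sox9cKO and 8.08 ± 1.26 in controls, a log2 difference of -0.31 ± 0.20 (limma, adjusted p = 1.0). Exact permutation gave 0.1 for both, the smallest that 3 against 3 allow. All 3 controls and 1 Sox9cKO library had Y-linked RNA, and with sex as a term the differences were -0.62 for Plagl1 (adjusted p = 0.521) and -0.51 for Meg3 (adjusted p = 0.397), larger than without it and not called.

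The mutant effects at the 2 stages were compared directly. None of the 9 genes was called, against 0.0311% of all genes (limma). The largest differences of effect were those of Meg3 (-0.45 ± 0.27), Plagl1 (-0.39 ± 0.38) and Dlk1 (-0.33 ± 0.10). Dlk1 alone of the 9 had an unadjusted p under 0.05 (limma, adjusted p = 1.0), as had 393 of all 12880 genes. It was higher in the mutants at E11.5 and lower on average at E12.5, where it measured 12.1 ± 1.11 RPKM against 13.4 ± 0.99. For Grb10 the difference of effects was 0.12 ± 0.06 (adjusted p = 1.0).

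The E11.5 sets were compared for all 9 genes as a description, since the sets were found from the same libraries. H19, Cdkn1c and Mest were lower and Igf2, Plagl1 and Meg3 higher in all libraries of the set of 3 than in all of the set of 4. Of all genes 57.3% had sets that did not overlap, 41.0% lower and 16.3% higher in the set of 3, and the members' 6 of 9 is near that share. The log2 difference, set of 3 minus set of 4, was 0.83 for Plagl1, 0.54 for Meg3, 0.32 for Igf2, -0.32 for Cdkn1c, -0.44 for Mest and -0.57 for H19. Grb10 (-0.02), Dlk1 (0.05) and Peg3 (0.06) overlapped between the sets.

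**Figure D3:**
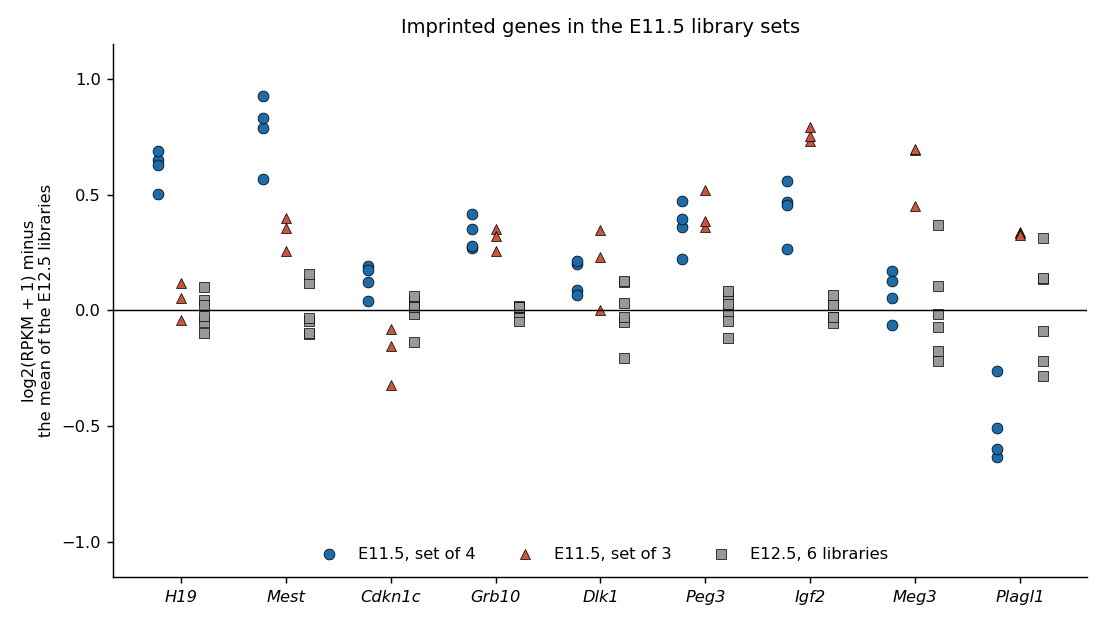
Values of log2(RPKM + 1) minus the mean of the 6 E12.5 libraries (vertical axis) for each gene (horizontal axis), by E11.5 set. Points are libraries. The sets stand apart for H19, Mest, Cdkn1c, Igf2, Meg3 and Plagl1, lie on opposite sides of the E12.5 mean for Cdkn1c and Plagl1, and overlap for Grb10, Dlk1 and Peg3.

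Neighbouring genes of a locus did not move alike between the sets. H19 and Igf2 share enhancers downstream of H19, which act on H19 from the maternal and on Igf2 from the paternal copy. The ratio of H19 to Igf2 RPKM was 5.17 to 5.75 in the 4 libraries of the set of 4, 2.79 to 3.04 in the set of 3 and 4.65 to 5.13 in the 6 E12.5 libraries. The set of 3 stood below all other libraries. By group the ratio was 4.65 ± 1.43 in E11.5 controls and 4.24 ± 1.54 in Sox9null, and 5.005 ± 0.12 in E12.5 controls and 4.75 ± 0.12 in Sox9cKO. The ratio of Dlk1 to Meg3 was 1.64 to 2.19 in the set of 4, 1.25 to 1.35 in the set of 3 and 1.47 to 2.11 at E12.5. Here too the set of 3 lay below the other libraries.

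Of the hosted microRNA genes, Mir335 and Mir483 had rows of their own in the table. Mir335 measured 10.8, 7.23 and 11.1 RPKM in E11.5 controls and 4.26, 3.13 and 5.86 in E12.5 controls. The Sox9null libraries measured 6.78, 7.52, 10.9 and 12.6 RPKM and Sox9cKO 2.83, 1.79 and 3.88, below all E11.5 libraries. Its log2 difference between stages over both genotypes was -1.22 ± 0.19 (limma, adjusted p = 0.000485), in the direction of its host Mest. Mir483 measured 8.91, 6.31 and 7.86 RPKM in E11.5 controls and 4.21, 6.03 and 5.78 in E12.5 controls, which is a difference of -0.46 that was not called (limma, adjusted p = 0.126). The Sox9null libraries measured 13.3, 16.6, 11.2 and 8.62 RPKM, 3 of 4 above every E11.5 control, and Sox9cKO 6.18, 4.70 and 5.11. The stage difference in mutants was -1.06 (adjusted p = 0.00543) and over both genotypes -0.76 ± 0.14 (adjusted p = 0.00141). Between Sox9null and control, Mir483 differed by 0.61 ± 0.19 (adjusted p = 1.0), and its host Igf2 by 0.10. These rows are short genes and can hold reads of the host transcript, so they do not measure the mature microRNAs.

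Other imprinted genes were called about as often as genes in general. Of 68 further symbols 46 were in the table, and over both genotypes 7 fell, 14 rose and 25 were not called (limma), with a median log2 difference of 0.05 against 0.06 for all genes. Among all genes 12.6% were called lower and 29.7% higher. Those that fell included Peg10 (68.4 to 42.2 RPKM from E11.5 to E12.5), a retrotransposon-derived gene, Asb4 (75.5 to 51.6), Nnat (150 to 109) and Rtl1 (12.1 to 9.39), which lies in the Dlk1 cluster. Nespas, Snrpn and Ppp1r9a fell as well. Those that rose included Dcn (6.85 to 21.6 RPKM), the matrix proteoglycan decorin, Phlda2 (5.19 to 9.93), a growth inhibitor in the cluster of Cdkn1c, Gatm (4.38 to 8.94), Ddc (2.88 to 4.65), Atp10a (2.96 to 4.41), Usp29 (3.51 to 4.83) and Osbpl5 (14.5 to 17.9). Snurf was also called higher but shares its transcript with Snrpn and is listed at 0 in 5 E11.5 libraries, so its value is uncertain. None of the 46 was called between mutant and control at either stage.

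**Figure D4:**
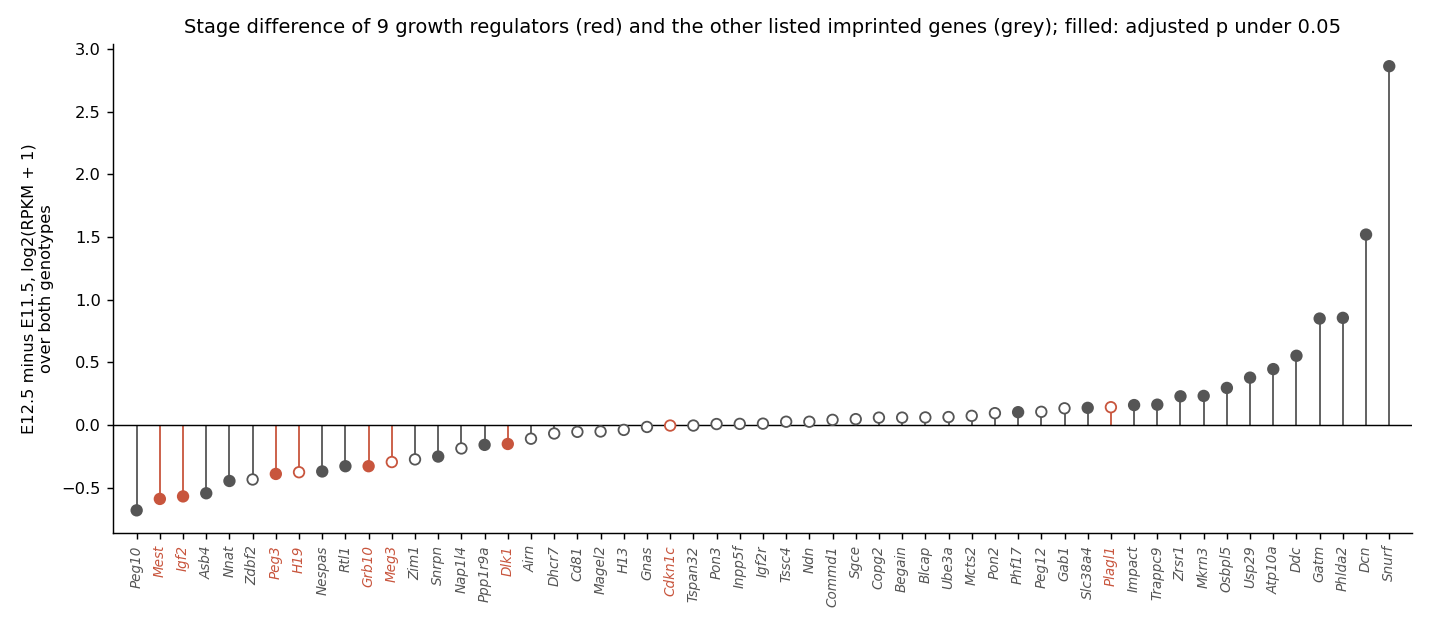
Stage difference in log2(RPKM + 1) over both genotypes (vertical axis) for the 9 growth regulators in red and 46 other imprinted genes in grey (horizontal axis, sorted). Filled points had an adjusted p under 0.05. The red points lie between -0.59 and 0.14, and the grey points reach to both sides of 0.

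Among 21 measured genes of IGF signalling, 6 fell and 4 rose between stages over both genotypes (limma), where 42.4% of all genes were called, 12.6% lower and 29.7% higher. Those that fell were Igfbp4 (64.9 to 47.4 RPKM), an IGF-binding protein, the receptor substrate Irs1 (27.4 to 20.7), the kinase Akt1 (51.0 to 43.2) and all 3 Igf2 mRNA-binding proteins, Igf2bp1 (53.9 to 41.5), Igf2bp2 (31.4 to 26.9) and Igf2bp3 (51.3 to 46.9). Igfbp3 (25.0 to 31.8 RPKM), Pik3r1 (14.8 to 19.1), Foxo3 (20.9 to 24.1) and Stc1 (5.05 to 7.29) rose. The median log2 difference of the 21 was -0.10.

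Relatives of Cdkn1c in the control of division were described in the same way. Of 16 measured CDK inhibitors and G1 cyclins with their partners, 6 rose and 4 fell over both genotypes, against 29.7% and 12.6% of all genes. The inhibitors Cdkn1b (24.0 to 27.3 RPKM), Cdkn2c (2.75 to 4.71) and Cdkn2d (19.8 to 24.2) rose, as did the pocket proteins Rb1, Rbl1 and Rbl2. Cdk4 (97.7 to 71.9), Cdk6 (14.7 to 11.6), Ccnd2 (69.9 to 60.9) and Ccnd3 (44.0 to 39.0) fell.

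Of 11 measured Notch ligands, receptors and targets, Dll1 (3.76 to 6.00 RPKM) and Hey2 (2.58 to 4.42) rose, and Notch3 (40.8 to 32.2), Notch4 (7.24 to 6.16) and Dll4 (5.41 to 4.30) fell, against 29.7% of all genes higher and 12.6% lower. Of 16 measured genes that maintain imprints or DNA methylation, 6 fell and 1 rose, to be read against the same shares. Trim28 (113 to 82.2 RPKM), the corepressor that holds imprints through zinc finger proteins, Uhrf1 (51.9 to 39.0), Dnmt1 (64.5 to 57.3), Mbd3, Hells and Ctcf fell, and Arid4a rose. Plag1, a relative of Plagl1, rose from 12.9 to 14.99 RPKM (log2 difference 0.20, adjusted p = 0.0196), and Plagl2 was not called. No gene of these 4 lists, or of the IGF list, was called in either mutant comparison.

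Markers of several, but not all, of the cell types that a limb bud holds moved with stage as well. Limb mesenchyme markers (13 of 13 listed) summed to 527 to 616 RPKM at E11.5 and 503 to 542 at E12.5. Chondrocyte markers (12 of 14 listed) summed to 152 to 214 RPKM in E11.5 controls, 94.6 to 118 in Sox9null, 287 to 368 in E12.5 controls and 154 to 210 in Sox9cKO. Over both genotypes 6 of the mesenchyme markers fell and 1 rose, and 10 of the chondrocyte markers rose. These and the counts below are to be read against 29.7% of all genes called higher and 12.6% lower. Matn1 was the only marker of a cell type listed at 0, in 2 libraries. Muscle markers (14 of 17) summed to 93.3 to 134 RPKM at E11.5 and 175 to 299 at E12.5, with 10 higher and 1 lower. Macrophage markers (9 of 10) summed to 39.9 to 56.2 RPKM at E11.5 and 58.4 to 92.3 at E12.5, with 8 higher. Erythroid markers (11 of 12) summed to 814 to 1460 RPKM at E11.5, 623 to 678 in E12.5 controls and 861 to 1060 in Sox9cKO. Their sums thus overlapped between the stages in the mutants but not in the controls, with 0 higher and 2 lower over both genotypes. The part of cell composition in the falls of Igf2, Grb10, Peg3 and Mest was not tested.

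For each member the 3 genes with the nearest pattern were found among 11661 genes that averaged 3 RPKM or more. Genes with a predicted-gene symbol (Gm and a number, LOC or Rik) were left out. The measure was the root mean square difference of centred log2 values over the 13 libraries. The members' own root mean square around their means ran from 0.136 (Cdkn1c) and 0.138 (Dlk1) to 0.352 (Plagl1), so distances are not comparable between members. The patterns hold stage and E11.5 set together, and shared regulation was not tested. They were Pabpc1 (0.0617), Trp53 and Ywhae for Igf2, and Caprin1 (0.0386), Eif4g1 and Eftud2 for Grb10. Those of H19 included Gnb2l1 (0.0548) and Rpl4, and those of Mest were Rps15 (0.0829), Hist1h1b and Tubb5. Peg3 was nearest to Mybbp1a (0.0642), Chd4 and Eftud2, and Cdkn1c to Serf2 (0.0568), Arf6 and Taf6. Plagl1 was nearest to Ston1 (0.115), Sema5a and Gpc4, and Dlk1 to Xrcc3 (0.0662), Rin1 and Scarf2. The nearest to Meg3 was Gm26906 (0.0912), followed by Synj1 and Camta2. Gm26906 stayed in the search because the deposited values list it under another name. Gm26906 lies inside Meg3 on the opposite strand (chr12:109568628-109571723), and the sources used here do not say whether counting used strand, so reads of the 2 cannot be told apart. No member was among the 3 nearest genes of another.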

How the data were processed

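RNA was measured in 13 limb bud libraries, extracted with the RNeasy Mini Kit per the labels. CASAVA 1.8 and mm10 are named in the submitters' processing notes; nothing read here names the aligner, the counting, its use of strand or the annotation. The authors deposited normalized RPKM per gene and library, and kept those that averaged 3 or more in any of the 4 groups, per the file headers. In 6 columns the same deposited values were handled as a plain score because of how the header is laid out; they are normalized RPKM too, per the file headers. The authors deposited a p-value per gene over the 4 groups, adjusted for false discovery rate, which is quoted but not used. Columns were assigned by header. Of the identifiers, 12715 of 12880 matched GENCODE M21.

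Depth per library is unknown, whole reads were not recovered from the low values, and no model of counts was used. With limma 3.58.1 in R 4.3.3 (trend, robust), log2(RPKM + 1) was fitted with 4 group means over all 13 libraries. The pseudocount makes differences of low genes smaller. A filter of 1 RPKM or more in 3 or more libraries removed 0 of the 12880 genes. Tests were two-sided, with Benjamini-Hochberg adjustment over all genes. The script was tested on simulated data. A single gene was also tested by exact permutation of library labels. The p-values measure the spread between libraries, which at E11.5 includes the difference between the sets as well as that between embryos. Alternatives were another pseudocount, filter, scaling or variance model, only the groups compared, a replicate block, terms for library set and sex, and each library left out.

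The members and gene lists were chosen with earlier results of these data known. Beside the members, genes were named where called, up to 8 in each direction per list and comparison. Likeness used root mean square differences, as described with its result. One gene found by likeness is not reported here. Promoter and microRNA sequences came from RefSeq tables; 7 of the 9 members had a window.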

Additional observations from a re-analysis of the deposited data

How the results depend on the processing

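Over 54 pairs of a member and a comparison, 1386 values were recomputed; 100 changed sign, of which 94 were called in neither fit, 25 calls were lost and 30 gained without a change of sign. With each library left out in turn, the number of members called was 0 for the mutant comparisons and their difference, 3 to 4 for stage in controls, 3 to 6 in mutants and 4 to 6 over both genotypes. Among all 12880 genes the stage counts were then 1381 to 3374, 708 to 2976 and 4334 to 5760. Without Sox9cKO replicate 1, 3 members were called for stage in mutants, and 976 of all genes, against 2539 with all libraries. With quantile normalization the number was 1 in controls (Cdkn1c, higher) and 3 in mutants, where 2664 and 2402 of all genes were called. With library set as a term it was 8 for stage over both genotypes and 1 at E12.5 for mutant against control (Plagl1). Calls among all genes rose as well, to 7049 from 5459 in the main fit for stage and to 105 from 25 at E12.5. That term marks the set of 3 and codes the E12.5 libraries, whose set is unknown, with the set of 4, so its stage differences are E12.5 against the set of 4 and no separate evidence from leaving out the set of 3. The sets were left out as alternatives chosen after seeing the data: without the set of 3 the stage count over both genotypes was 8, and without the set of 4 the E12.5 mutant count was 1. Among all genes these counts were 7106 and 55.

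Changes of sign among the differences given singly were as follows, and the cause was not tested. With quantile normalization H19 was 0.18 in mutants and 0.084 over both genotypes, and Cdkn1c was 0.43 over both. With library set as a term Plagl1 was 0.37 for stage in mutants. Without the set of 3 it was 0.42 there, and without the set of 4 it was -0.14 in controls and -0.33 over both genotypes, where Cdkn1c was 0.18. With 1 library left out, Igf2 ranged from -0.029 to 0.21 in the E11.5 mutant comparison, Peg3 from -0.0064 to 0.085 in that of E12.5, Plagl1 from -0.22 to 0.10 for stage in mutants and Cdkn1c from -0.055 to 0.033 over both genotypes.

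Correlations of deviations from the group means between control and mutant of one replicate number were -0.435, 0.635 and 0.441 at E11.5 and 0.169, 0.027 and -0.117 at E12.5. At E11.5 the 2 libraries numbered 2, and the 2 numbered 3, belong to one set, and those numbered 1 to different sets. Pairing by number and library set cannot be told apart there. With a replicate block Cdkn1c was 0.011 for stage over both genotypes and Mest in mutants was not called (-0.50, adjusted p = 0.0609). With depth unknown, the precision of the low genes Dlk1, Meg3 and Plagl1 is known only from the spread between libraries.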

Other observations

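Cdkn1c, the inhibitor of division, and Igf2, the growth factor of the same chromosome 7 cluster, were also set against each other. The ratio of their RPKM was 1.62 to 1.89 in the 6 E12.5 libraries, 1.35 to 1.64 in the E11.5 set of 4 and 0.85 to 0.98 in the set of 3, so that E12.5 overlapped the set of 4 and the set of 3 stood apart. The 9 genes together summed to 708 to 783 RPKM at E12.5, 828 to 875 in the set of 3 and 967 to 1086 in the set of 4, with H19 the largest part in each library. Both quantities were chosen after their values were seen, and neither was tested.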
